A study of Homo sapiens with 2 samples.

Results

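A set of 8 genes around hepatocyte growth factor, its receptor and the remodelling of the extracellular matrix was examined: HGF, MET, SPINT1, SPINT2, HPSE, MMP9, TIMP1 and TIMP2. They were taken by symbol, as all probe sets of the Affymetrix HG-U133 Plus 2.0 array that its annotation assigns to exactly 1 symbol, which gave 19 probe sets for 8 genes, out of 41091 such probe sets for 19775 genes. Total RNA came from MM.1S, a human multiple myeloma cell line, which was cultured with plasmacytoid dendritic cells (pDCs) in one group and cultured alone in the other. No drug, genotype or time is named for either group. The sources used here do not give the source and number of the pDCs, or whether they were removed before RNA extraction. Each group had 1 array (n = 1), so no value has a replicate error, no test was possible, and "higher" and "lower" describe these arrays. Fewer cells of a type and less RNA per cell cannot be told apart in such bulk RNA. Of 11 plasma cell markers, 10 had signals over the median of the array in co-culture and 11 alone, among them SDC1 (syndecan-1) at 10177 in co-culture and 10503 alone. The markers were lower in co-culture in 8 of 11 cases, with a median log2 ratio of -0.48 and a summed signal of 163324 in co-culture and 195349 alone, and their part in the differences below was not tested.

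HGF is secreted as an inactive single chain, which serine proteases such as HGF activator and matriptase (ST14) cut into the form that activates the receptor tyrosine kinase MET. SPINT1 and SPINT2, also called HAI-1 and HAI-2, are membrane-bound Kunitz-type inhibitors of these proteases. Myeloma cells are known to make HGF and to hold it on the heparan sulfate chains of syndecan-1, which heparanase (HPSE) trims and which MMP9, a gelatinase, can help to shed, while TIMP1 and TIMP2 inhibit metalloproteinases.

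RefSeq promoter windows (GRCh38.p14) were found for HGF, MET, SPINT1, HPSE and TIMP1. The 250 bases before the annotated start sites of HGF, the ligand, and MET, its receptor, are shown because they differ in base composition. Each is written 5′ to 3′ on the gene's strand with CpG dinucleotides in capitals.
HGF, chr7:81770048-81770297, minus strand: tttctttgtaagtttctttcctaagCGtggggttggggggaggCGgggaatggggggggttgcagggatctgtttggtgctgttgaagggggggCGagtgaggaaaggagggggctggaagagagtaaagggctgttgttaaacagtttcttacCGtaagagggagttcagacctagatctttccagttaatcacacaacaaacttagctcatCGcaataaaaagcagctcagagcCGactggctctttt
MET, chr7:116671946-116672195, plus strand: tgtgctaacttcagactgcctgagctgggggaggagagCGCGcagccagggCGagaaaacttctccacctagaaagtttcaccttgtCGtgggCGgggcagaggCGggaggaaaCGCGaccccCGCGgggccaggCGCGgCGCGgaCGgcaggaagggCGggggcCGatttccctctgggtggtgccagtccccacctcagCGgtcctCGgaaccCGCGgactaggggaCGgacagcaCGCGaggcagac
The HGF window held 6 CpG dinucleotides and 50.0% G and C, while the MET window held 24 and 68.4%. The medians over 35116 promoter windows of this length were 11 CpG dinucleotides and 58.0%. The windows of ligand and receptor lay on opposite sides of them, a contrast for which these windows were shown. On either strand, the GC box letters GGGCGG occurred at 2 places in the MET window and at none in the HGF window, against 42.6% of all windows with at least 1. Neither window held the letters of a TATA box (TATAAA, in 10.7% of all windows) or of a CCAAT box (in 32.0%). Neither held an AP-1 site, searched as TGANTCA, or a STAT site, searched as TTCNNNGAA, each present in 6.57% of windows. These matches describe letters in a sequence and no binding was measured.

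All 8 genes were detected on both arrays on their brightest probe set. Here detected means a signal over a floor, the median signal of the array, which was 116 in co-culture and 124 alone, and a gene's brightest probe set is that whose mean log2 signal of both arrays is highest. HGF and MMP9 were lower in co-culture by more than 2-fold, and the other 6 genes were higher by less than 2-fold. Among all 14407 genes detected on at least 1 array, 4.51% were at least 2-fold lower and 3.17% were at least 2-fold higher. The median log2 ratio, co-culture minus alone, was 0.16 over the 8 genes and -0.03 over all of these genes. By probe set, 15 of the 19 were detected on at least 1 array, and 5 of the 15 were past 2-fold, all lower, against 4.67% lower and 4.19% higher among 25794 probe sets. Of these 5 probe sets, 4 measure HGF and 1 measures MMP9.

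**Figure D1:**
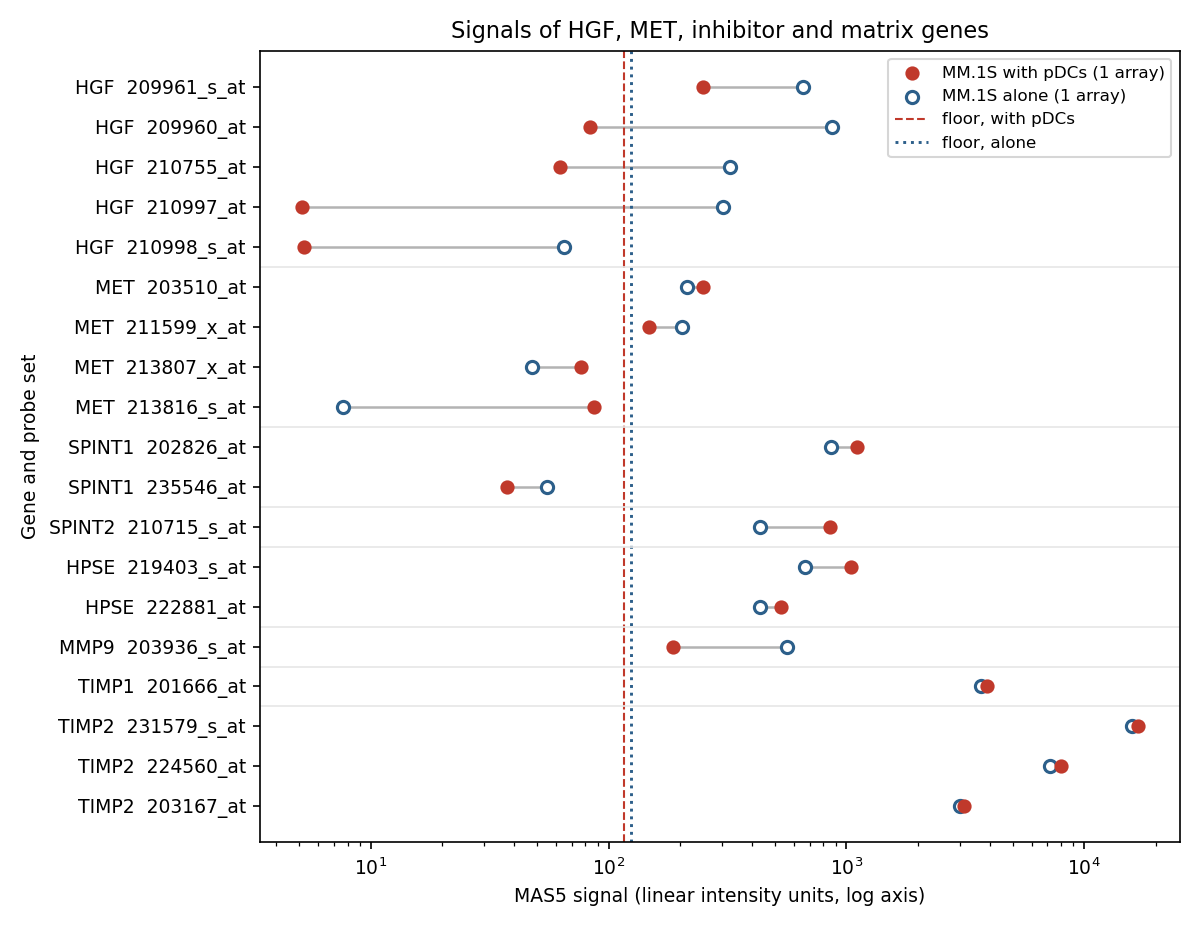
MAS5 signal (log axis) of each of the 19 probe sets on the array of MM.1S cells with pDCs (filled points) and of MM.1S cells alone (open points), 1 array each, with dashed and dotted lines at the floors of 116 and 124. All 5 HGF probe sets and the MMP9 probe set lie further left in co-culture, while the TIMP1 and TIMP2 points nearly coincide.

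HGF itself, the ligand, had its brightest probe set, 209961_s_at, at a signal of 249.8 in co-culture and 658 alone. The signal was lower in co-culture but stayed above the floor there, a 2.63-fold difference (log2 ratio -1.40). Of all measured genes, 1.27% had a ratio as low. Bounds were ranked at their bound, so this share is the least possible. A different probe set, 209960_at, had the highest HGF signal of the MM.1S-alone array, 869.7, and only 83.8 in co-culture. Because the co-culture signal was below the floor, this is a difference of at least 7.50-fold. Probe set 210755_at gave 62.6 in co-culture and 325 alone (at least 2.81-fold lower), and 210997_at gave 5.16 and 303 (at least 2.61-fold lower). The remaining one, 210998_s_at, was below the floor on both arrays, at 5.25 in co-culture and 64.8 alone, and has no ratio. HGF was thus detected by 1 probe set in co-culture and by 4 in MM.1S cells alone.

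The HGF probe sets gave the same direction but not the same size, with log2 ratios from -1.38 to -2.91 or lower. Across the 4844 genes with at least 2 probe sets detected on both arrays, the log2 ratios of probe sets of the same gene had a pooled SD of 0.48. Probe sets of a gene share the same RNA and are not replicates.

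MMP9, the gelatinase that degrades basement membrane collagen, is measured by 1 probe set, 203936_s_at, with a signal of 186 in co-culture and 565 alone. It was lower in co-culture and detected on both arrays. The difference was 3.05-fold (log2 ratio -1.61), and at least 0.604% of measured genes had a ratio as low, with bounds ranked at their bound. When measured genes were split by mean signal into 4 groups of equal size, HGF and MMP9 were both in group 2, counted from the dimmest, where 7.97% of genes were at least 2-fold lower. That share was 2.22% in group 3 and 1.53% in group 4, so ratios of this size were more common at the signal level of HGF and MMP9 than among brighter genes. With the floor at the 70th percentile of each array, the MMP9 signal in co-culture was below it and the log2 ratio was -0.99 or lower. With no replicate, the MMP9 ratio rests on a single probe set on a single pair of arrays.

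Myeloid cells also make HGF and MMP9, so their markers are given beside these ratios. Of 14 monocyte, macrophage and neutrophil markers on the array, 4 were detected in co-culture and 6 alone, and their summed signal was 1109 in co-culture and 1962 alone. Among the 9 detected on at least 1 array, 6 had a negative log2 ratio and 1 a positive one, with a median of -0.36. FCN1 (123 in co-culture, 62.6 alone) and CSF1R (121 and 123) were above the floor only in co-culture. Their log2 ratio was set to 0, because the floors differ. LYZ, lysozyme, had 17.0 in co-culture and 711 alone, and without it the sums were 1092 and 1251. ITGAM, an integrin chain of myeloid cells, was the 1 marker with a positive log2 ratio, at 234 in co-culture and 104 alone. CD14, a monocyte receptor, had 26.9 in co-culture, below the floor, and 139 alone, just above it. MPO and ELANE of neutrophil granules, and CD163 of macrophages, were below the floor on both arrays. Over 6 platelet markers the summed signal was 697 in co-culture and 1671 alone, a difference that rested on PPBP (30.6 and 957), since the sums without it were 666 and 714. Of the 4 platelet markers detected on at least 1 array, 3 were lower in co-culture. The other, TUBB1, a platelet tubulin, was higher in co-culture, at 205 against 19.7. Of the 15 pDC markers, 9 were detected in co-culture and 11 alone, with a summed signal of 26388 in co-culture and 17770.4 alone, or 6787 and 8718 without LAMP5. LAMP5 was 2.17-fold higher (19601 in co-culture, 9053 alone). Among the 12 detected on at least 1 array, 4 were higher and 8 lower in co-culture, with a median log2 ratio of -0.32. GZMB was 3.47-fold lower, and TLR9 and BCL11A were at least 2.24-fold and 2.32-fold lower on their brightest probe sets. Dimmer BCL11A probe sets went both ways (222891_s_at 142 in co-culture and 65.9 alone, 219497_s_at 29.1 and 161). TLR7 was higher in co-culture, at 213 against 96.2, which was below the floor. The defining pDC genes CLEC4C (61.4 in co-culture, 6.43 alone) and IL3RA (29.0 and 21.1) were below the floor on both arrays, and LILRA4 had 306 and 256. Of these markers, ITGAM, FCN1, CSF1R, MPO, ELANE, CD163, TUBB1 and TLR7 were named after their values were seen. The part of other cells in the HGF and MMP9 ratios was not tested.

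RNA quality also differed between the arrays. For the ACTB control probe sets, signal at the 3′ end over signal at the 5′ end came to 8.09 in co-culture and 19.5 alone, and for GAPDH to 2.46 and 3.07. The place of each HGF or MET probe set along its transcript was not used here, so the part of this difference in the spread between probe sets was not tested.

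MET, the receptor, showed small differences of both signs. Its brightest probe set, 203510_at, had a signal of 249 in co-culture and 213 alone (log2 ratio 0.23), and 29.8% of measured genes had a ratio as high. A second one above the floor, 211599_x_at, had 148 in co-culture and 204 alone (log2 ratio -0.46). These disagree in sign, and the x_at suffix marks probe sets that can bind several transcripts. The other MET probe sets were below the floor on both arrays, 213807_x_at at 76.8 in co-culture and 47.7 alone and 213816_s_at at 87.3 and 7.68. MET signals on the array were thus close to the floor. Its log2 ratio was -0.11 when all of its probe sets were averaged after flooring. In that mean the probe sets below the floor add only the difference between the floors, while their unfloored log2 ratios were 0.69 and 3.51. Because the detected probe sets disagree in sign, no direction is given for the receptor.

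Among genes of the MET receptor complex and its adaptors, 28 were measured, MET included, and 1 was at least 2-fold higher and 1 at least 2-fold lower. The median log2 ratio of the list was -0.01, close to that of all genes (-0.03). CD44, a hyaluronan receptor known as a co-receptor for MET, had 23106 in co-culture and 7447 alone (3.10-fold higher). All 8 CD44 probe sets detected on both arrays were higher, by 2.18-fold to 3.10-fold, and a dim one, 234411_x_at, was at least 2.09-fold lower (55.5 in co-culture, 242 alone). STAT3, a transcription factor activated downstream of MET and of cytokine receptors, had 1179.9 in co-culture and 3256 alone on its brightest probe set (2.76-fold lower). Of the other STAT3 probe sets detected on both arrays, 208992_s_at was 2.18-fold lower (282 in co-culture, 615 alone) and 225289_at had a log2 ratio of 0.26. The adaptors that couple MET to RAS and PI3K, named after their values were seen, differed little: GAB1 had a log2 ratio of 0.12, GRB2 of -0.26 and SOS1 of 0.06. Among transcripts listed as inducible by MET signalling, 14 were measured, of which 1 was at least 2-fold higher and 3 at least 2-fold lower. Without MMP9, which is 1 of the 8 genes, 13 were measured, 1 higher and 2 lower. Over all genes 3.17% were at least 2-fold higher and 4.51% at least 2-fold lower. A link of these transcripts to the lower HGF signal was not tested. Those lower were MMP9, CCND1 (cyclin D1, at least 2.67-fold lower, 108 in co-culture and 309 alone) and HBEGF, an EGF receptor ligand (at least 2.14-fold lower, 113 in co-culture and 248 alone). The other CCND1 probe set detected, 208712_at, was 1.58-fold lower (125 in co-culture, 198 alone). The one higher was HMOX1, heme oxygenase 1, with 558 in co-culture and 259.9 alone.

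The protease inhibitors SPINT1 and SPINT2 were both higher in co-culture, by less than 2-fold. SPINT2 is measured by 1 probe set, 210715_s_at, with 853 in co-culture and 433 alone. The co-culture signal was the higher one, and the difference of 1.97-fold (log2 ratio 0.98) was just short of 2-fold. After median centring of the ratios it was just over 2-fold (log2 ratio 1.01). Of all measured genes, 3.37% had a ratio as high. SPINT1 had 1105 in co-culture and 858 alone on 202826_at (log2 ratio 0.37), a ratio reached by 21.4% of genes, and its other probe set, 235546_at, was below the floor on both arrays at 37.4 and 55.1. The SPINT1 difference was smaller than the pooled SD of 0.48 between probe sets of a gene.

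Matriptase, the membrane protease encoded by ST14 that SPINT1 and SPINT2 inhibit and that can activate HGF, differed in the other direction. Its brightest probe set had 1763 in co-culture and 3969.7 alone, a 2.25-fold lower signal (log2 ratio -1.17). On 216905_s_at it had 865 in co-culture and 1249.8 alone (log2 ratio -0.53), the same direction within 2-fold. ST14 was the only 1 of 14 measured genes past 2-fold (7.14%, against 7.68% of all genes) in the list of HGF-activating proteases and their inhibitors. The median log2 ratio of that list was -0.02 with SPINT1 and SPINT2 and -0.06 without them. HGFAC, the gene of HGF activator, named after its values were seen, was below the floor on both arrays, at 25.3 in co-culture and 16.9 alone.

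**Figure D2:**
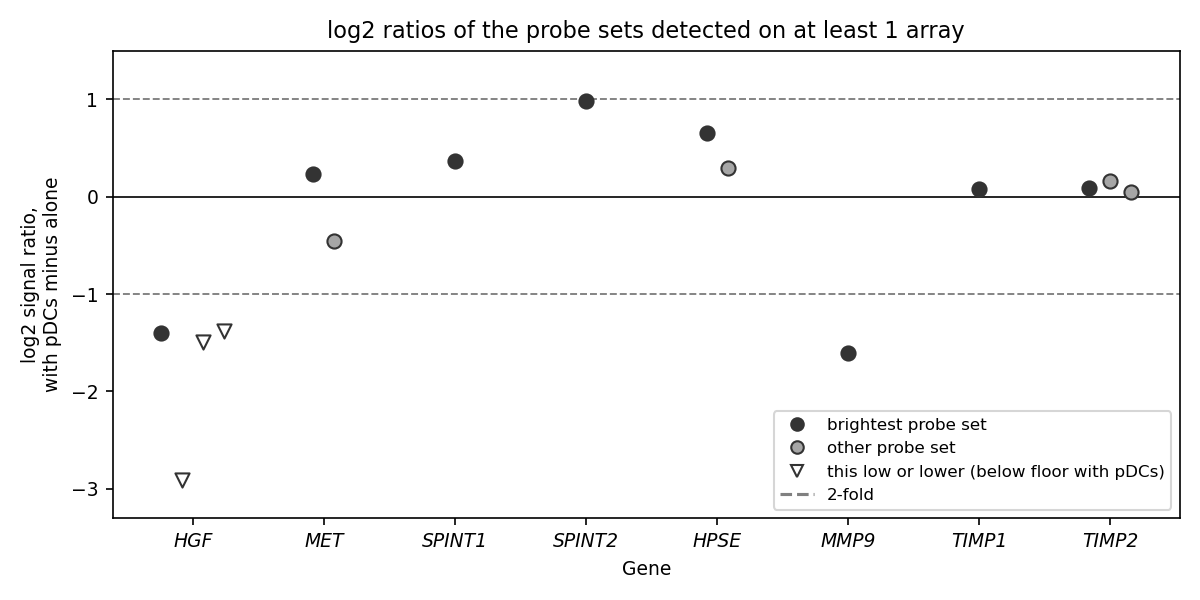
The log2 signal ratio, co-culture minus alone, of each of the 15 probe sets detected on at least 1 array, by gene, with dashed lines at 2-fold; dark points are the brightest probe set and open triangles are bounds, where the true ratio is this low or lower. HGF and MMP9 are the genes below the lower line, and SPINT2 at 0.98 lies just under the upper one.

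HPSE, heparanase, was higher in co-culture on both of its probe sets. On 219403_s_at it had a signal of 1045 in co-culture and 668 alone (log2 ratio 0.65), and on 222881_at it had 531 and 435 (log2 ratio 0.29). Both were detected on both arrays, and neither reached 2-fold. Of all measured genes, 9.55% had a ratio as high as the brightest one. Its relative HPSE2, named after its values were seen, was below the floor on both arrays at 15.7 in co-culture and 21.5 alone.

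The lists of heparan sulfate carriers and enzymes around HPSE had medians close to that of all genes (-0.03). Of 14 measured heparan sulfate proteoglycans, 2 were at least 2-fold higher and 0 were at least 2-fold lower, with a median log2 ratio of -0.04. The share past 2-fold was 14.3%, against 7.68% of all genes. Those higher were CD44 and TGFBR3 (betaglycan, a co-receptor for TGF-beta, 319 in co-culture and 135 alone). SDC1, the main heparan sulfate proteoglycan of plasma cells, had log2 ratios of -0.05 and -0.26 on its probe sets 201286_at and 201287_s_at. Of 28 measured genes of heparan sulfate synthesis and editing, HPSE included, 1 was past 2-fold: HS3ST4, a sulfotransferase, was at least 2.28-fold higher, with 283 in co-culture and 56.8 alone. Of this list 3.57% were past 2-fold, and its median was -0.03.

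TIMP1 and TIMP2 were bright and nearly equal on the arrays. TIMP1, which binds MMP9 and its precursor, had 3893 in co-culture and 3682 alone (log2 ratio 0.08). TIMP2, which binds MMP2, had 16812 in co-culture and 15816 alone on 231579_s_at, 7976 and 7161 on 224560_at, and 3122 and 3009 on 203167_at. All 3 TIMP2 probe sets were slightly higher in co-culture, with log2 ratios from 0.05 to 0.16. These ratios lay near the middle of all genes, since 40.5% had a ratio as high as TIMP1 and 39.9% one as high as TIMP2. They were also far inside the spread of log2 ratios over genes detected on both arrays, which had an SD of 0.53, and of the 8 genes these were the ones with the smallest differences.

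MMP9 and the TIMPs were also set beside lists of metalloproteinases and of their inhibitors and regulators. Of 14 measured matrix metalloproteinase genes, MMP9 included, 2 were at least 2-fold lower and 0 at least 2-fold higher. Their median log2 ratio was -0.24. Over all genes 4.51% were at least 2-fold lower and 3.17% at least 2-fold higher. Without MMP9, 13 were measured, 1 was at least 2-fold lower and the median was -0.08. The one besides MMP9 was MMP7 (matrilysin), which was at least 2.01-fold lower, with 108 in co-culture and 233 alone. MMP14, the membrane protease that activates MMP2 and was named after its values were seen, had 384 in co-culture and 252 alone (log2 ratio 0.61). Of 9 measured inhibitors and regulators, SPARC, a collagen-binding matrix protein, was 2.59-fold higher (1338 in co-culture, 517 alone), and THBS1, thrombospondin 1, was 2.34-fold lower (137 in co-culture, 320.2 alone). The other SPARC probe set above the floor had a log2 ratio of 0.46, and the other THBS1 one had -0.16 or lower. The median of this list was 0.09 with TIMP1 and TIMP2 and 0.15 without them. Past 2-fold were 22.2% of its 9 genes, against 7.68% of all genes.

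The wider protease and matrix lists held genes past 2-fold at a share near that of all genes. Over 11 lists, which overlap, 176 genes other than the 8 were measured, and 16 of them (9.09%) were past 2-fold, 7 higher and 9 lower, against 7.68% of all genes. Their median log2 ratio was -0.04. In the plasminogen activation system, 8 of 10 measured genes had a positive ratio, with a median of 0.35. S100A10, the plasminogen-binding partner of annexin A2, was 2.16-fold higher (1058 in co-culture, 490.4 alone) on its brightest probe set and had -0.28 on the other, and PLGRKT, a plasminogen receptor, was 2.03-fold lower (1004 in co-culture, 2039 alone). Of 15 cathepsins and cystatins, CTSA, a lysosomal carboxypeptidase, was 2.66-fold higher (5031 in co-culture, 1889 alone) and none was 2-fold lower. ADAMTS17, a secreted metalloprotease, was the only 1 of 20 ADAM and ADAMTS genes past 2-fold (at least 2.22-fold lower, 97.1 in co-culture and 257 alone). LAMB3, a laminin chain, was the only 1 of 25 matrix components and crosslinking enzymes (at least 2.51-fold lower, 22.1 in co-culture and 291 alone).

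**Figure D3:**
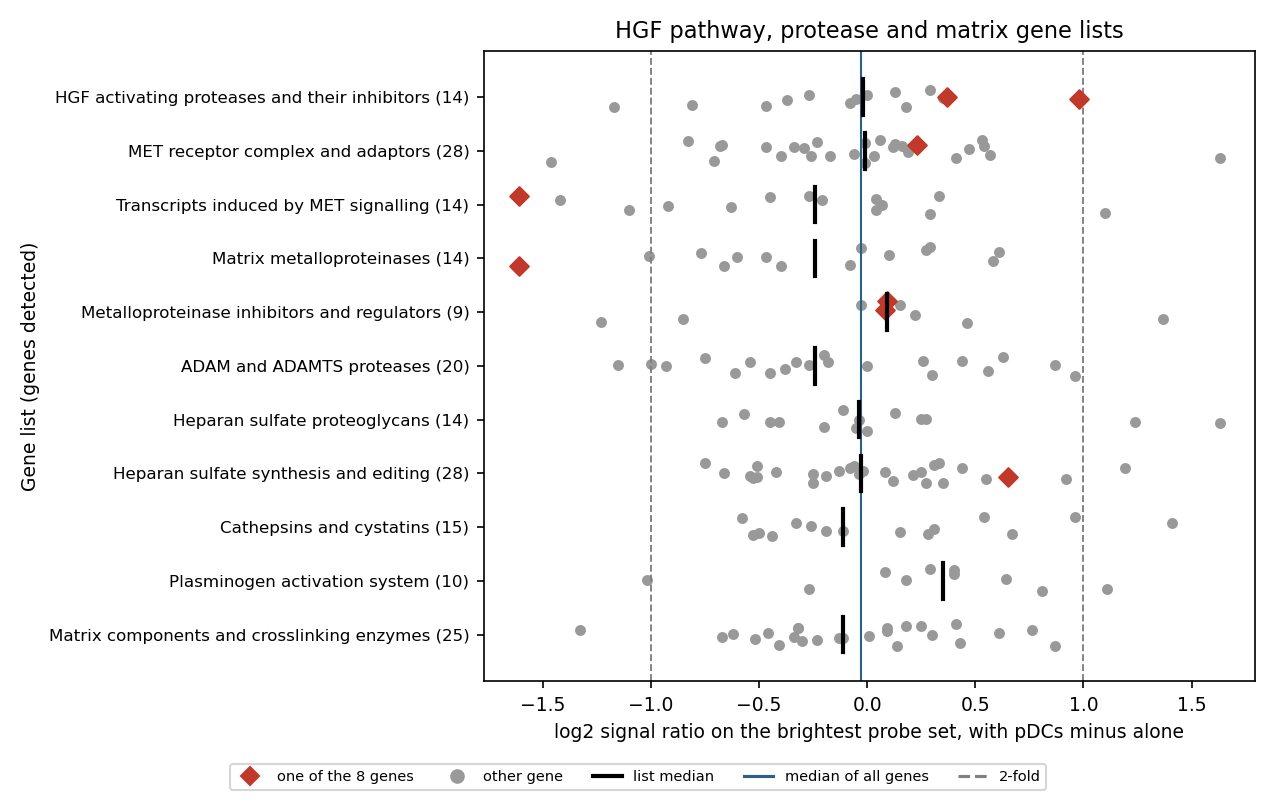
The log2 signal ratio, co-culture minus alone, of each gene detected on at least 1 array in 11 overlapping lists, on its brightest probe set; diamonds are the 7 of the 8 genes that a list holds (HGF is in none), grey points other genes, black bars list medians, and bounds are drawn at their bound. List medians lie between -0.24 and 0.35, within 2-fold, and MMP9 is the leftmost point of its lists.

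The genes nearest to HGF in log2 signal over the 2 arrays were ZNF320 (258 in co-culture, 642 alone), MIPEPP3 (241 and 646) and C4orf33 (239 and 663), at distances of 0.056 to 0.066. Nearest to MMP9 were INSYN1 (191 and 595), ARSK (181 and 605) and ADRA2C (188 and 520.1), at distances of 0.085 to 0.121. Likeness over 2 arrays rests on 2 values per gene. Other probe sets of MIPEPP3 (log2 ratio 0.19) and ARSK (0.03 and -0.11) did not share the pattern.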

How the data were processed

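Total RNA from MM.1S cells with pDCs and from MM.1S cells alone was hybridised to HG-U133 Plus 2.0 arrays, 1 per group, grouped by sample title. The deposited values are linear signal intensities from MAS5, per the submitters' processing notes. Its version and its background and detection steps are not given here. The mean after trimming 2% at each end was 500.1 on both arrays, and such scaling hides a change common to most transcripts.

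Of 54675 probe sets, 41091 had 1 gene symbol, 1801 several, 11721 none and 62 were controls, and 41037 matched RefSeq genes of GRCh38.p14. Signals below the array's median were set to it before log2. A gene below this floor on 1 array has a bound ("at least") and on both has no ratio. With no replicates, 2-fold served as a threshold of size, no test was run, and precision is limited by having 2 arrays.

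The 8 genes and all lists were chosen with earlier results of these data known. Named genes were the 8, up to 4 members of each list past 2-fold or else its 2 brightest, fixed marker genes, and the 3 genes nearest HGF or MMP9 in log2 signal (Euclidean distance). Alternatives were median centring, quantile normalization, loess (span 0.3), floors at the 30th or 70th percentile or none, the mean over probe sets, no x_at or s_at probe sets, and thresholds of 1.5-fold and 3-fold. Steps were tested on simulated data with changes larger than 2-fold, set only in genes brighter than HGF and MMP9. The simulated noise was also smaller than the pooled SD of 0.48 between probe sets of a gene. That test does not show how well the calls work at the noise of these arrays or at the signal level of HGF and MMP9. Python 3.11.15 was used with statsmodels 0.14.6 for loess, pandas 2.3.3 and numpy 2.4.6 for tables, and matplotlib 3.10.9 for figures.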

Additional observations from a re-analysis of the deposited data

How the results depend on the processing

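Of 77 values of the 8 genes under alternatives, 72 kept their side of the threshold. HGF ranged from -2.91 to -1.21 (log2) and MMP9 from -1.61 to -0.99. Both ends for HGF and the -0.99 for MMP9 are bounds (this low or lower), because the co-culture signal was below the floor there. HGF (-1.40) was not past a 3-fold threshold. With the higher floor the MMP9 bound (-0.99) did not reach 2-fold, and the size of the difference is not known at that setting. SPINT2 passed 2-fold after median centring (1.01), and passed a 1.5-fold threshold (0.98), as did HPSE (0.65). SPINT1, SPINT2, HPSE, TIMP1 and TIMP2 stayed positive under each alternative that gave a value. MET ranged from -0.11 to 0.27 and turned negative with the mean over floored probe sets, in which its dim probe sets add only the difference between the floors. MET gave no value with the higher floor, and SPINT2 and MMP9 none without x_at and s_at probe sets.

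The 2 genes past 2-fold became 1 with the higher floor, without x_at and s_at probe sets and at 3-fold, and 4 at 1.5-fold. The 5 probe sets became 2 with the higher floor and at 3-fold, and 3 without x_at and s_at probe sets. The 16 other list genes past 2-fold became 38 with the lower floor, 7 with the higher, 56 with none, 9 with the mean over probe sets, 48 at 1.5-fold and 1 at 3-fold, while the share of all genes past the threshold was 19.5%, 3.93%, 26.0%, 3.71%, 26.8% and 1.10% under the same settings. The counts of single lists were less stable, and 61 of 110 under alternatives were classed as moved. For example, the 4 transcripts inducible by MET signalling past 2-fold became 0 with the higher floor. The 2 matrix metalloproteinase genes became 1 with median centring, quantile normalization or loess. No paired analysis was possible because each group has 1 array and the labels give no replicate numbers.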
